A study of Mus musculus with 6 samples.

Results

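Mast cells are resident immune cells of the dermis that store proteases and histamine in secretory granules. The gene set described here holds the granule proteases of these cells, their IgE and MRGPRB2 receptors, the histamine-producing enzyme, and the growth factor receptor Kit with its ligand Kitl. The members were taken by gene symbol from the read-count table: Cma1, Mcpt4, Tpsb2, Tpsab1, Cpa3, Kit, Kitl, Ms4a2, Mrgprb2 and Hdc. Of these 10 genes 9 had a row among the 18404 of the table, all 9 were tested, and Tpsab1 was not analysed here. The 6 libraries came from the ear skin of mice at postnatal day 3, with 3 from control pups and 3 from pups with an endothelial knockout of Kdr, labelled Vegfr2ecko (here ecko). Kdr encodes VEGFR2, the main receptor for VEGF-A on endothelium. Tamoxifen is recorded for all 6 samples, and the series gives a start on postnatal day 1 at 60 µg per day and places the profile 48 h later. The controls are littermates according to the series, but their alleles and the Cre driver of the knockout are not given in the sources used here. Nothing says how many animals stand behind a library, so each p-value covers only the spread among these libraries, which may be technical.

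The skin holds mainly mast cells of the connective tissue type, whose granules contain chymases, tryptases and a carboxypeptidase bound to proteoglycan. KIT ligand, made by neighbouring cells, keeps mast cells alive through the receptor tyrosine kinase KIT. Degranulation can follow cross-linking of IgE on its high-affinity receptor or the binding of cationic ligands to MRGPRB2. In bulk tissue RNA, fewer cells of a type and less RNA per cell cannot be told apart.

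Kdr checked the knockout, with 1337 to 1860 control counts against 348 to 431 in ecko, and it was the 1 gene of 14920 that passed edgeR's quasi-likelihood test (log2 fold change -2.05 ± 0.12 SE, adjusted p 0.0002). Libraries held 16987130 to 17979182 counts. Control 2 and ecko 3 were almost without reads of the Y-linked gene Ddx3y (4 and 6 counts), against 1445 to 1641 in the other 4 libraries. Control 2 also had the lowest summed level of 7 keratinocyte markers (17767 CPM, against 18574 to 23785 in the others) and the highest of 11 pan-endothelial markers (631 CPM, against 487 to 553). Control 3 had the lowest summed level of 7 skeletal muscle markers (5028 CPM, against 7016 to 8963). CPM here is counts scaled to a common library size by the TMM method.

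No mast cell gene was called between pups with and without endothelial Kdr, and all 9 fold changes had 95% intervals within 0.761 to 1.45. Of the 9 members 0 passed edgeR's test, where 0.0067% of all genes did, and 0 had an unadjusted p under 0.05, where 9.01% of all genes did. DESeq2 and limma-voom also called 0 members. The mean was higher in ecko for 6 members and lower for 3, and 49.5% of all genes had a higher mean. The median log2 fold change was 0.044 over the members and -0.0020 over all genes. Ms4a2 was the 1 member whose groups did not overlap, higher in ecko. This holds for 7.55% of all genes, and groups without overlap in either direction for 15.7%.

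**Figure D1:**
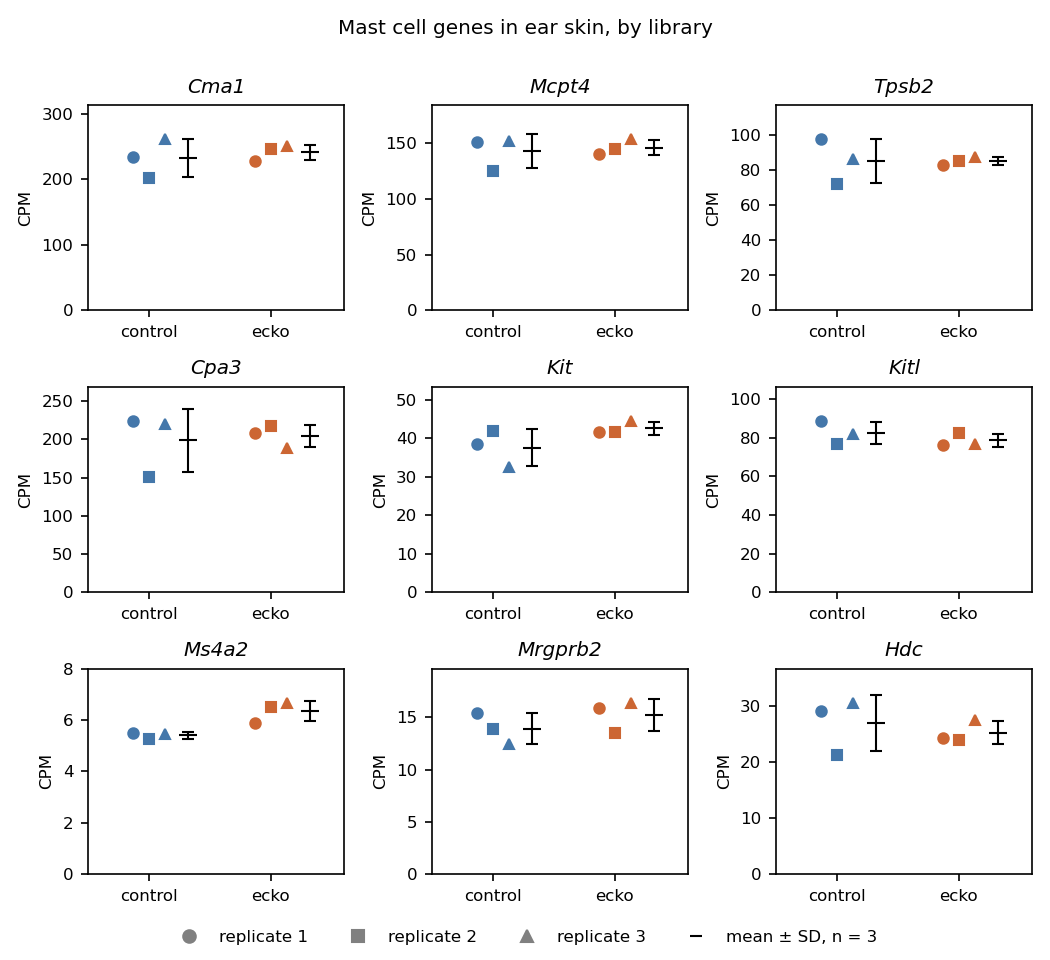
TMM-scaled CPM of the 9 measured mast cell genes in each library (vertical axes start at 0), with controls in blue, ecko in orange, marker shapes for replicate numbers, and black bars for the mean ± SD over 3 libraries. Control 2 is the lowest of the 6 libraries for Cma1, Mcpt4, Tpsb2, Cpa3, Ms4a2 and Hdc, and only for Ms4a2 do the groups not overlap.

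The granule proteases were the most abundant members. Levels can be compared between genes only per length, so CPM was divided by the kilobases of exon of each gene in GENCODE M21. Exons of all annotated transcripts were merged, so a gene whose expressed transcript uses only part of them reads too low. Cma1, the chymase also called MCPT5, stood at 214 ± 26.9 CPM per kilobase in the controls and 222 ± 10.5 in ecko (SD, n = 3). Cpa3, the mast cell carboxypeptidase that trims the C-terminal residues of peptides, followed at 131 ± 27.0 and 135 ± 9.67. Mcpt4, the other chymase, stood at 129 ± 13.7 and 132 ± 6.18 CPM per kilobase, within the spread of Cpa3. The tryptase gene Tpsb2, also called Mcpt6, was next at 53.4 ± 7.92 and 53.4 ± 1.33.

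The remaining members were lower on the same per-length scale. Kitl stood at 14.0 ± 0.989 CPM per kilobase in the controls and Mrgprb2 at 6.71 ± 0.723 (SD, n = 3). Hdc and Kit could not be ordered, at 4.22 ± 0.779 and 4.21 ± 0.536. Ms4a2, the beta chain of the IgE receptor, was the lowest member at 1.92 ± 0.0487.

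**Figure D2:**
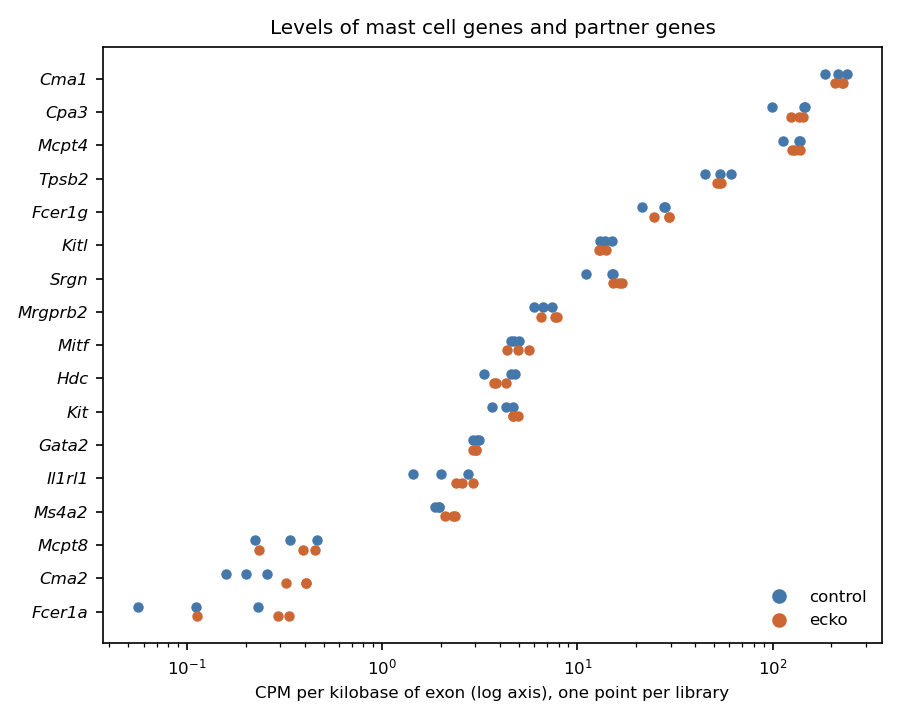
CPM per kilobase of exon for the 9 members and 8 partner genes, on a log axis with 1 point per library and the genes ordered by their control mean. Cma1, Cpa3 and Mcpt4 lie near the right edge, and the IgE receptor alpha chain Fcer1a lies at the left edge.

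Cma1 (Entrez 17228, chr14:55941451-55944675) and Mcpt4 (Entrez 17227, chr14:56059744-56062310) sit 115 kb apart in GRCm38.p6, with the protein-coding genes Cma2, Mcpt1, Mcpt2 and Mcpt9 between them. Cpa3 (Entrez 12873, chr3:20215616-20242209) and Tpsb2 (Entrez 17229, chr17:25366308-25368096) lie on other chromosomes. Tpsab1 lies 20.7 kb from Tpsb2, and RefSeq lists it as a transcribed pseudogene in this build. Tpsb2 transcripts share 0 of 1636 words of 50 bases with any other gene of GENCODE M21. Cma1 shares 5.38% of its words with the gene model Gm48934, and Mcpt4 shares 5.48%, all of them with Cma2 and some also with Mcpt9.

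The sequences upstream of the 3 most abundant members per kilobase are shown as a description. Each runs 5′ to 3′ on the minus strand, from up to 200 bases before the RefSeq start to the outermost annotated start. Capitals mark the GATA factor motifs AGATAA or TGATAA on either strand.
Cma1, chr14:55944676-55944875: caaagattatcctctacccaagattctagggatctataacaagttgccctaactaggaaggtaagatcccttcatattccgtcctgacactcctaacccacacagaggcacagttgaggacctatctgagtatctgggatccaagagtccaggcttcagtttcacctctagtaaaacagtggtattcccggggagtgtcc
Mcpt4, chr14:56062314-56062510: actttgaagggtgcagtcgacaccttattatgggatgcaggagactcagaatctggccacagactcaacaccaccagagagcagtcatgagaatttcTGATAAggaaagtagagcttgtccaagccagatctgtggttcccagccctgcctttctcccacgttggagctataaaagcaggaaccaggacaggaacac
Cpa3, chr3:20242210-20242381: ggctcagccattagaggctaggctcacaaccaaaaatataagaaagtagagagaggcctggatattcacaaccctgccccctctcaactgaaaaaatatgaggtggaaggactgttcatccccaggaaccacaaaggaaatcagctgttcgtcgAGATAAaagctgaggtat
Mcpt4 and Cpa3 hold 1 GATA motif each and Cma1 holds 0. Promoter sequences were at hand for 8 members, without Tpsb2. In the same 200-base window Mrgprb2 holds 1 such motif, Ms4a2 holds 2, and Kit, Kitl and Hdc hold 0. Among 32851 RefSeq promoters 13.2% hold at least 1. Of these windows, those of Kitl and Hdc lie wholly inside the annotated gene and those of Kit and Ms4a2 partly. Both Ms4a2 motifs fall in the part inside the gene. The E-box letters CATGTG or CACGTG, which MITF can bind, were in 0 of the 8 members' windows and in 14.6% of all. A match of letters is a description and not a measured binding site.

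Cma1 had 235, 203 and 261 CPM in controls 1 to 3 and 229, 246 and 250.5 CPM in ecko 1 to 3. The ecko values lay inside the control range. The means were 233 ± 29.3 and 242 ± 11.4 CPM (SD, n = 3), a 1.04-fold difference with a 95% interval of 0.906 to 1.19 and an edgeR adjusted p of 0.873.

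Mcpt4 had 151, 126 and 153 CPM in the controls and 140.1, 145 and 154 CPM in ecko. Control 2 was again the lowest library, and the groups overlapped. The fold difference was 1.02, with a 95% interval of 0.902 to 1.16 (edgeR adjusted p 0.921).

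Tpsb2 had 97.4, 72.2 and 86.1 CPM in the controls, and the ecko libraries were close together at 83.0, 84.9 and 87.2 CPM. All 3 ecko values lay within the control range. The log2 fold change was -0.0026 ± 0.097 (SE), with a fold interval of 0.859 to 1.16 and an edgeR adjusted p of 0.995.

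Cpa3 varied most among the controls, with 224, 151 and 221 CPM, against 208, 218 and 189 CPM in ecko. The coefficient of variation was 20.6% in the controls and 7.16% in ecko. Its log2 fold change was 0.044 with a 95% interval of -0.29 to 0.38 (edgeR adjusted p 0.936), the widest interval of the 4 proteases.

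The 4 measured proteases had a shared low point in control 2. Averaged over them, log2 CPM stood 0.264 below the mean of 6 libraries there (-0.264), and between -0.017 and 0.105 in the other 5. Together they took 0.0555% of all counts in control 2 and 0.0666% to 0.0710% in the others. Without control 2 the log2 fold changes turned negative for Cma1 (-0.040), Mcpt4 (-0.059) and Cpa3 (-0.12), and that of Tpsb2 fell to -0.11, none past the threshold. Tpsb2 turned positive without control 1 (0.10), control 3 (0.010) or ecko 1 (0.012), Mcpt4 negative without ecko 3 (-0.0075) and Cpa3 negative without ecko 2 (-0.0013), so none of these signs held with every library left out in turn. The low keratinocyte and high endothelial marker levels of control 2 stand beside this, and their part in it was not tested.

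Within the protease transcripts, the share of Cpa3 was lower in the pair of libraries almost without Y-linked reads. Cpa3 made up 27.4% of the summed counts of the 4 proteases in control 2 (Wilson 95% interval 26.6% to 28.3%) and 27.8% in ecko 3 (27.0% to 28.6%). In the other 4 libraries it made up 30.6% to 31.6%, with intervals from 29.8% to 32.5%. The shares of the chymases were highest there, with 22.8% and 22.6% for Mcpt4 against 20.9% to 21.4%, and 36.7% and 36.8% for Cma1 against 33.2% to 36.2%. Unlike those of Cpa3, the chymase intervals overlapped those of other libraries. For Cma1 they were 35.8% to 37.7% in control 2 and 35.4% to 37.1% in control 3. For Mcpt4 they were 22.0% to 23.6% in control 2 and 20.7% to 22.1% in control 1. The intervals cover counting error only, each share comes from 1 library, and the comparison was chosen after the values were seen. Of this pair 1 library is a control and 1 is ecko.

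Split by Ddx3y reads, the ecko to control ratio of mean CPM for the 4 proteases was 0.915 to 0.957 among the libraries with such reads (2 per group). It was 1.21 to 1.25 for ecko 3 over control 2, a ratio of single libraries. Hdc split the same way, at 0.808 and 1.29. Control 2 was already the lowest library for the 4 proteases, Hdc and Ms4a2, so their ratios over it had to exceed 1. For these genes the split therefore says nothing separate about Ddx3y reads. Kit had 1.17 and 1.06, Ms4a2 had 1.13 and 1.27, and Mrgprb2 had 1.05 and 1.18, above 1 in both sets. Kitl had 0.932 and 1.00.

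**Figure D3:**
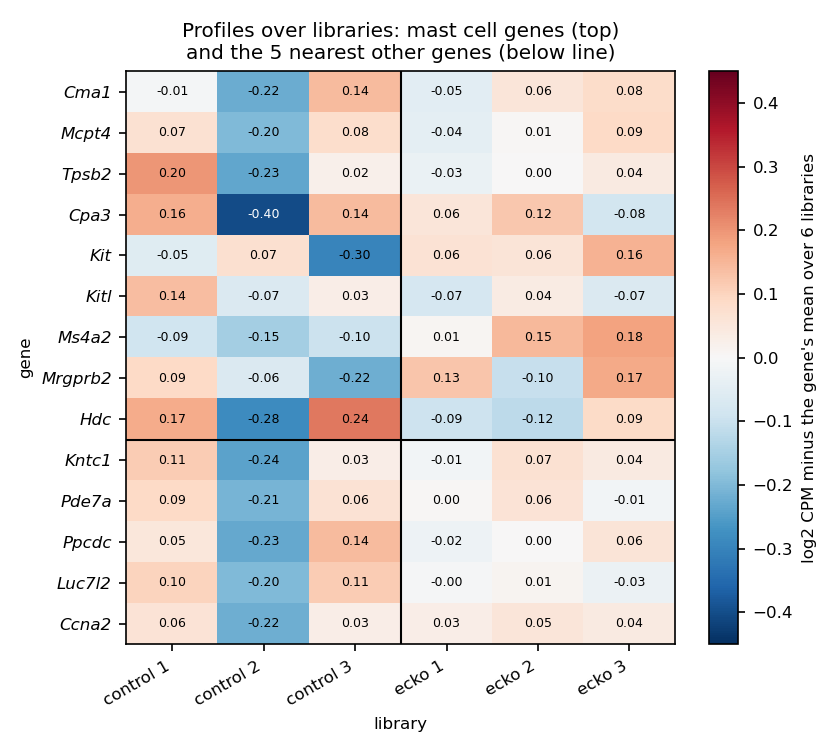
Log2 CPM minus the gene's own mean over 6 libraries, with libraries in columns, the 9 mast cell genes in the upper rows and the 5 other genes nearest to the protease profile in the lower rows. The proteases and Hdc are below their means in control 2, while Kit is lowest in control 3 (-0.297).

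Kit, the receptor for KIT ligand, had 38.4, 41.8 and 32.4 CPM in the controls and 41.6, 41.5 and 44.4 CPM in ecko. The groups overlapped only through control 2. The means were 37.5 ± 4.77 and 42.5 ± 1.64 CPM (SD, n = 3), with a log2 fold change of 0.18 ± 0.097 (SE), an interval of 0.976 to 1.31 in fold and an edgeR adjusted p of 0.610. This was the smallest p among the members, at 0.0935 unadjusted. Without control 3, its lowest library, the log2 fold change was 0.089. Kit did not share the order of the proteases: control 3 was the lowest library for Kit and the highest for Cma1.

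Kit is also expressed by melanocytes, so melanocyte markers were read beside it. All 10 were tested, 0 passed edgeR's test or had an unadjusted p under 0.05, DESeq2 and limma-voom also called 0, and the means of 7 were higher in ecko (median log2 fold change 0.016). Their summed level was 464 to 510.1 CPM in the controls and 461 to 522 in ecko. The smallest p among them were those of Oca2 (log2 fold change -0.22), Mlana (-0.11) and Sox10 (0.13), with edgeR adjusted p of 0.734 to 0.808. The part of melanocytes in the Kit level was not tested.

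Kit (Entrez 16590, chr5:75574987-75656722) is the chromosomal neighbour of the deleted gene. Kdr (Entrez 16542, minus strand) lies at chr5:75932827-75979072 in GRCm38.p6, with 276 kb and 0 protein-coding genes of RefSeq between them. Kdr was at 0.241 of its control level while the neighbouring Kit had a ratio of 1.13, not past the test.

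Kitl (Entrez 17311, chr10:100015615-100100416) encodes KIT ligand, also called stem cell factor, which fibroblasts, keratinocytes and endothelial cells can produce. It had 88.6, 76.9 and 82.1 CPM in the controls and 76.5, 82.6 and 76.9 CPM in ecko. The groups overlapped, and the fold difference was 0.953, with an interval of 0.854 to 1.06 and an edgeR adjusted p of 0.784. Among the members this was the narrowest interval. For 10 of 11 pan-endothelial markers the ecko mean was lower (median log2 fold change -0.16), while 49.5% of all genes had a higher mean. For 5 of these markers all ecko libraries lay under all controls, as for 8.11% of all genes. An unadjusted edgeR p under 0.05 was found for 4 of the 11, where 9.01% of all genes had one. Of the 11 markers 0 passed edgeR's test, and DESeq2 and limma-voom called 0. Plvap, Cdh5 and Tie1 had the smallest p, with log2 fold changes of -0.21, -0.26 and -0.21 and edgeR adjusted p of 0.496 to 0.516. Which cells supplied Kitl was not measured.

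The IgE receptor of mast cells has an IgE-binding alpha chain (Fcer1a), an amplifying beta chain (Ms4a2) and a signalling gamma chain (Fcer1g) that other Fc receptors share. Ms4a2 (Entrez 14126, chr19:11615517-11623790) had 5.51, 5.26 and 5.48 CPM in the controls and 5.90, 6.50 and 6.67 CPM in ecko. Every ecko library lay above every control. The counts behind these values were 95 to 98 and 106 to 116, the log2 fold change was 0.23 ± 0.14 (SE), and the edgeR adjusted p was 0.637. The interval ran from 0.948 to 1.45 in fold, so the separation did not exceed the error estimated by the test.

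Fcer1a was close to the detection limit, its counts being 1, 2 and 4 for the controls and 6, 2 and 5 for ecko, and was not tested. Per kilobase of exon, the alpha chain was at 0.133 CPM and the beta chain at 1.92 CPM in the controls. Fcer1g, at 22.6 ± 3.25 CPM in the controls and 24.4 ± 2.35 CPM in ecko (SD, n = 3), had a log2 fold change of 0.12 and an edgeR adjusted p of 0.789. Of the 12 listed genes of IgE receptor chains and early signalling 11 were tested, with 9 higher and 2 lower means. Over all genes 49.5% had a higher mean. Btk (log2 fold change 0.39), Syk (0.23) and Plcg2 (0.22), all signalling proteins downstream of antigen or Fc receptors, had the smallest p, and their edgeR adjusted p were 0.539 to 0.593. The groups of Btk and Syk did not overlap, higher in ecko, as for 7.55% of all genes. These 3 genes are also expressed by macrophages, whose 10 markers all had higher means in ecko (median log2 fold change 0.15, summed level 658 to 753 CPM in the controls and 718 to 788 in ecko). The part of macrophages in the signalling genes was not tested.

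Mrgprb2 (Entrez 243979, chr7:48550965-48558086), the receptor for cationic peptides and drugs, had 15.5, 13.9 and 12.5 CPM in the controls and 15.9, 13.5 and 16.4 CPM in ecko. Ecko 2 lay among the controls, and the other ecko libraries lay above them. The log2 fold change was 0.13 ± 0.12 (SE) with an interval of 0.907 to 1.32 in fold (edgeR adjusted p 0.763).

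Hdc (Entrez 15186, chr2:126593659-126624025) encodes histidine decarboxylase, which makes histamine. It had 29.1, 21.3 and 30.6 CPM in the controls and 24.3, 23.9 and 27.6 CPM in ecko. Control 2 was the lowest library and the other controls were the highest, so the ecko values fell between them. The log2 fold change was -0.096 ± 0.13 (SE), with an interval of 0.761 to 1.15 in fold and an edgeR adjusted p of 0.845. Without control 2 it was -0.24, and without control 3 it was 0.0073.

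**Figure D4:**
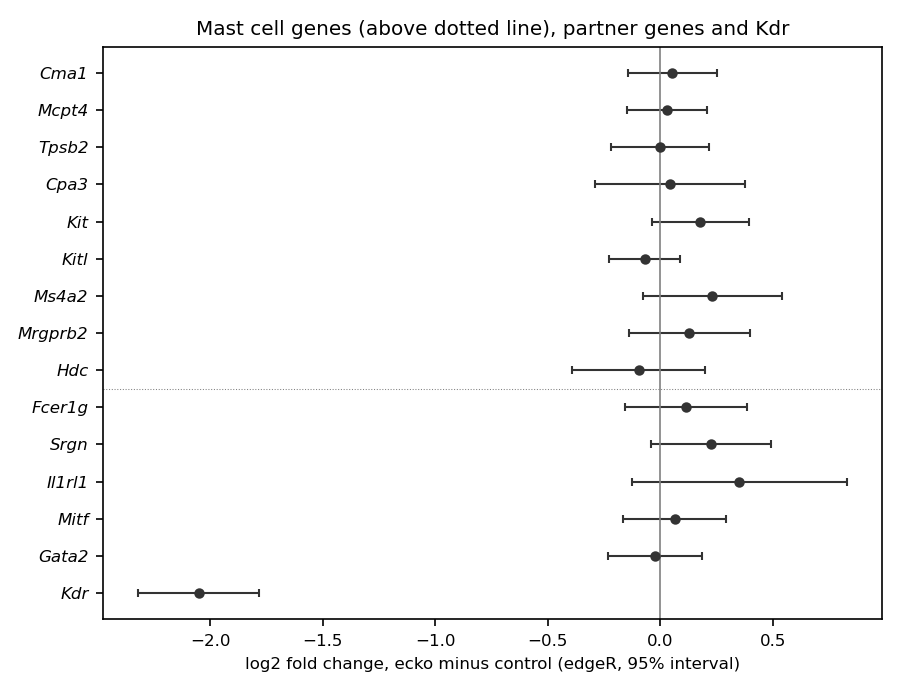
Log2 fold change of ecko over control with its 95% interval from edgeR for the 9 mast cell genes (above the dotted line) and, below it, 5 partner genes and Kdr. The intervals of all 9 members include 0, while that of Kdr runs from -2.32 to -1.78.

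Among proteases outside the member list, Mcpt8, Mcpt2, Mcpt9, Gzmb and Cma2 were near the detection limit. Mcpt8, a basophil protease, had 4 to 8 counts per library, Mcpt2 had 0 to 3 and Mcpt9 had 0 to 2. The granzyme gene Gzmb had 1 count in each control and 4, 8 and 2 counts in ecko 1 to 3, without overlap and not tested. Cma2 counts were 5, 4 and 3 for controls 1 to 3 and 8, 8 and 6 for ecko 1 to 3, without overlap, at a level too low for the test. Higher ecko values without overlap were found for 7.55% of all genes tested, and Gzmb and Cma2 rest on 1 to 8 counts a library. The list held 11 proteases of the chymase, tryptase and granzyme clusters. Of these 8 were in the table, without Mcpt1, Prss28 and Prss29, and 0 of the 3 tested passed. These were Ctsg (log2 fold change 0.37), Tpsg1 (0.21) and Prss34 (0.10), each under 3 CPM in both groups, with edgeR adjusted p of 0.734 to 0.940.

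The genes of granule storage and secretion did not pass either. All 10 were tested, 5 with higher and 5 with lower means. Srgn, the serglycin core protein to which proteases bind, had 33.1, 24.3 and 33.5 CPM in the controls and 37.1, 35.9 and 33.3 CPM in ecko. Control 2 was its lowest library, as for the proteases, and the groups overlapped (log2 fold change 0.23 ± 0.12 SE, edgeR adjusted p 0.604). Slc18a2, the vesicular monoamine transporter gene, had a log2 fold change of 0.11 and an edgeR adjusted p of 0.796.

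Mitf and Gata2 encode transcription factors that mast cells need for their development. Mitf had 29.6 ± 1.49 CPM in the controls and 30.9 ± 4.02 CPM in ecko, and Gata2 had 16.4 ± 0.569 and 16.1 ± 0.360 CPM (SD, n = 3), with log2 fold changes of 0.064 and -0.024 and edgeR adjusted p of 0.869 and 0.946. Of the 9 listed factors 6 had a higher and 3 a lower mean in ecko. Stat5b (0.12), Gata1 (0.50) and Zeb2 (0.086) had the smallest p, with edgeR adjusted p of 0.672 to 0.695.

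Other surface receptors had higher means in ecko for 11 of 13 tested genes, with a median log2 fold change of 0.13. Over all genes 49.5% had a higher mean. The IL-33 receptor gene Il1rl1 had 18.9, 13.7 and 9.92 CPM in the controls and 17.8, 16.4 and 20.2 CPM in ecko. Control 3 was its lowest library, as for Kit and Mrgprb2, and the groups overlapped (log2 fold change 0.35 ± 0.21 SE, edgeR adjusted p 0.639). Csf2rb, the shared beta chain of the IL-3, IL-5 and GM-CSF receptors, had 0.25 and the lectin gene Cd33 had 0.38, with groups that did not overlap (7.55% of all genes, higher in ecko) and edgeR adjusted p of 0.508 and 0.516.

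In the list of KIT signalling and ligand processing 13 genes were tested, with 8 higher and 5 lower means. Pik3r1, a regulatory subunit of PI3 kinase, went from 166 ± 9.03 to 136 ± 10.2 CPM (SD, n = 3; log2 fold change -0.29 ± 0.071 SE, edgeR adjusted p 0.330), the smallest p among them. Pik3cd, a catalytic subunit of leukocytes, had 0.45 and the phosphatase gene Ptpn6 had 0.27, with edgeR adjusted p of 0.512 and 0.513. Among 6 genes of eicosanoid synthesis, Hpgds, the hematopoietic prostaglandin D synthase, had 0.31, Alox5ap 0.21 and Ptgs2 -0.31, with edgeR adjusted p of 0.539 to 0.701.

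Over all 7 of these pathway lists, 65 of 76 listed genes were tested and 0 passed edgeR's test, DESeq2 or limma-voom. In all 8 had an unadjusted p under 0.05, where 9.01% of all genes did. The groups did not overlap in 7 genes higher in ecko and in 2 lower, where 7.55% and 8.11% of all genes showed these patterns. The mean was higher in ecko for 44 and lower for 21, where 49.5% of all genes had a higher mean. The median log2 fold change was 0.063. Ptprc, the CD45 gene of all leukocytes, had 0.37 ± 0.11 (SE, edgeR adjusted p 0.442), and its part in the values of genes shared with other leukocytes was not tested.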

How the data were processed

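Poly(A) RNA of 6 ear skin samples was sequenced. The authors deposited expected counts per gene, not scaled between libraries. That unit is inferred from the numbers themselves, since 10.1% to 10.4% of a library's entries have decimals. HISAT2 2.2.1, Bowtie2 2.4.5, RSEM 1.3.1 and build GRCm38.p6 are named, without roles, per the submitters' processing notes. The annotation and strand setting are not given in the sources used here.

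Expected counts were rounded. Both groups (3 libraries each) were compared by edgeR 4.0.16 (quasi-likelihood test, R 4.3.3; filterByExpr with a minimum count of 10, TMM, robust glmQLFit), and p-values were two-sided, adjusted by Benjamini-Hochberg over 14920 genes with a threshold of 0.05. SE is the absolute log2 fold change over the square root of F, and the 95% intervals use the degrees of freedom of the test. An exact permutation test of 3 against 3 cannot go below 0.1 and was not used. Libraries held 16987130 to 17979182 expected counts, without molecular identifiers. Mean chi-square per gene between libraries was at least 4.18, so none was a duplicate within sampling noise. The fit was tested on simulated data.

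The members and lists were chosen with earlier results of these data known. Named genes are the members, Kdr, set partners, the 3 smallest p of each other list, and the 5 genes nearest to the protease profile (mean count at least 20). A gene that this rule takes from the granule list is not reported here. Mcpt2, Mcpt9, Gzmb and Ptprc were added after their values were seen. All member identifiers matched RefSeq of GRCm38.p6. Alternatives were DESeq2 1.42.0 (size factors or Wald test), limma-voom (limma 3.58.1), 2 other count filters, non-robust fitting, a replicate block, leaving out each library, the libraries with at least 50 Ddx3y counts alone, and leaving out the 20 most abundant genes.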

Additional observations from a re-analysis of the deposited data

How the results depend on the processing

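Of the 9 mast cell genes 0 passed under any of the 15 alternatives. The number of genes called over the whole table was 113 with the DESeq2 Wald test, 98 with the replicate block, 4 with only the libraries that had Ddx3y reads, and 1 to 3 with 1 library left out (3 without ecko 3), and the causes were not tested. With 1 library left out, the median of the members ran from -0.059 (without control 2) to 0.10 (without control 1). Cma1 ran from -0.040 to 0.15, Mcpt4 from -0.059 to 0.083, Tpsb2 from -0.11 to 0.10, Cpa3 from -0.12 to 0.14 and Hdc from -0.24 to 0.0073. With only the libraries that had Ddx3y reads, Cma1 was -0.063, Mcpt4 -0.093 and Cpa3 -0.063. Tpsb2 was 0.00090 with no low-count filter and 0.0081 with limma-voom. Kit, Ms4a2, Mrgprb2 and Kitl kept their signs under all 15, with Kit at 0.089 to 0.26 and Ms4a2 at 0.17 to 0.28.

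Deviations from the group means correlated across genes at 0.18, -0.29 and -0.092 for equal replicate numbers. Control 2 correlated best with ecko 3 (0.41), and both were almost without Ddx3y reads. Deviations within a group sum to 0, so these values depend on each other and cannot settle whether equal numbers mark pairs. With the replicate block Tpsb2 was 0.0069, and 0 members passed.

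Among the other named genes, Fcer1g ran from -0.0027 to 0.19 with 1 library left out, Mitf from -0.036 to 0.15, Gata2 from -0.053 to 0.0021, Prss34 from -0.28 to 0.35, Cd3d from -0.53 to 0.067, Dcn from -0.0045 to 0.14, Myh8 from -0.031 to 0.39 and Acta1 from -0.10 to 0.29. With only the libraries that had Ddx3y reads, Tpsg1 was -0.0079 and Prss34 -0.027. Summing Tpsb2 with Tpsab1 was not run because Tpsab1 was not analysed here. Ms4a2 rests on 95 to 116 counts a library and Fcer1a on 1 to 6, so differences in the beta and alpha chains are limited by depth.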

Other observations

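The genes whose levels over the 6 libraries lay nearest to the mean profile of Cma1, Mcpt4, Tpsb2 and Cpa3 were not mast cell genes. Nearness was the root mean square difference in log2 CPM after subtracting each gene's own mean, over 14185 genes. The nearest outside the set were Kntc1, which acts at the mitotic spindle checkpoint (0.031), the phosphodiesterase gene Pde7a (0.034), Ppcdc of coenzyme A synthesis (0.039), the splicing factor gene Luc7l2 (0.040) and the cyclin gene Ccna2 (0.042). All 5 were lowest in control 2, which follows from choosing them by nearness to a profile with its low point there. Mcpt4 ranked 7, Tpsb2 27, Cma1 40 and Cpa3 411, although these 4 made up the profile. Kitl ranked 658, Hdc 691, Ms4a2 3897, Mrgprb2 8108 and Kit 10646.

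Other cell types of the skin were read from marker lists, in which the main edgeR fit and limma-voom called 0 genes. Neutrophil genes had the largest log2 fold changes of these lists, with 1.15 for Csf3r, 1.41 for Cxcr2 and 1.24 for S100a8 (edgeR adjusted p 0.447 to 0.682), and Csf3r passed with DESeq2 (adjusted p 0.0409). Without ecko 1 they were 0.78, 1.05 and 0.34, and without control 1 that of S100a8 was 1.87. Among macrophage markers Fcgr1 had 0.69, Cd68 0.30 and Mertk 0.25 (edgeR adjusted p 0.300 to 0.497), and Fcgr1 passed with DESeq2 (adjusted p 0.0207). DESeq2 called 113 of all 14920 genes. The edgeR fit with the replicate block, which called 98, also called Csf3r (adjusted p 0.0251) and Fcgr1 (adjusted p 0.0371). Unadjusted p under 0.05 was found for 4 of 10 macrophage markers and 2 of 4 tested neutrophil markers, where 9.01% of all genes had one. None of the listed eosinophil markers was tested.

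The listed basophil markers Gata1 (0.50), Cyp11a1 (0.087) and Prss34 (0.10) had edgeR adjusted p of 0.672 to 0.940. Cyp11a1 had 327 to 394 counts a library, against 4 to 8 for the basophil protease Mcpt8. Which cells supplied Cyp11a1 was not measured, and Gata1 and Prss34 are also in the mast cell lists above. The lymphocyte genes Gzma (0.53), Cd3e (-0.19) and Cd3d (-0.21) lay under 3 CPM, and Gzma was 1.65 without control 1 and 0.11 without control 3. Pdgfra (0.15), Dpt (-0.070) and Dcn (0.052) of fibroblasts, Lor (-0.19), Krt1 (-0.21) and Krt14 (-0.10) of keratinocytes, and Myh3 (0.45), Myh8 (0.18) and Acta1 (0.10) of skeletal muscle had edgeR adjusted p of 0.620 to 0.897, and 0 of these lists' genes had an unadjusted p under 0.05.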
